A study of Homo sapiens with 30 samples.

Results

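The cytokine genes described here were TNF, LTA, LTB, IL22, IL26, IL10, TGFB1, IL16, IL32 and MIF, 10 genes of the 20046 with a name on the array. Their probes were found by gene symbol in the table of signals before normalisation, which gave 15 probes, 5 of the genes having 2 probes each. The genes were selected on results of these same arrays, namely on whether their probes were detected, on their level in the untreated lines and on the difference between CHOEP-treated and untreated cultures, so that their values are described and their p-values are not independent evidence. A probe was taken as detected on an array where its detection p against the negative control beads was under 0.01, and it passed the filter if 3 or more of the 30 arrays detected it. By this filter 14 probes and 9 of the 10 genes were kept, against 12482 of all named genes. A gene could pass through the group in which it was high. The probe of TGFB1 was not detected on any array.

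Gene expression was profiled with Illumina HumanHT-12 v4 BeadChips in 5 malignant T-cell lines, each exposed to CHOEP for 24 h or left untreated, with 3 cultures in each of the 10 groups. CHOEP is the mixture of cyclophosphamide, doxorubicin, vincristine, prednisone and etoposide used in T-cell lymphoma, and each line received it at its own IC50, so that the dose differed between lines. HD-MAR-2 (HDMAR in the labels) and JURKAT come from T-cell leukaemia, SUP-T1 (SUPT1) from lymphoblastic lymphoma, KARPAS-299 (KARPAS) from anaplastic large cell lymphoma and HH from cutaneous T-cell lymphoma, and each stands for the tumour of 1 patient. All were grown in the same serum-containing medium with no other cells or T-cell stimulus named, and cyclophosphamide needs activation in the liver.

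TNF, lymphotoxin-α (LTA) and lymphotoxin-β (LTB) are related ligands that bind receptors on neighbouring cells and start NF-κB signalling. Interleukin-22 (IL22) and interleukin-26 (IL26) belong to the interleukin-10 family and act on epithelial cells, while interleukin-10 (IL10) and TGF-β1 (TGFB1) restrain immune responses. Interleukin-16 (IL16) attracts CD4+ cells, interleukin-32 (IL32) induces other inflammatory cytokines, and MIF holds back the migration of macrophages. LTA, TNF and LTB are neighbouring genes on chromosome 6, and IL26 and IL22 are neighbouring coding genes next to IFNG on chromosome 12.

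Between 16003 and 18239 probes were detected per array. All 10 T-cell markers examined were detected on every array of HD-MAR-2, SUP-T1 and JURKAT, 8 (CHOEP) and 7 (untreated) of them on every array of an HH group, and in KARPAS-299 only CD3D, CD247 and CD5 were. The 6 arrays of a line shared a chip, so that line and chip cannot be told apart, and each treatment lay at the same positions of every chip, so that position and treatment cannot be told apart either. In RNA from a whole culture, fewer cells that express a gene and less RNA per cell cannot be told apart.

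KARPAS-299 was the line with the most cytokine genes that fell after CHOEP (5 of 8 tested, against 4.02% of all genes). In this line TNF, LTA, LTB, IL26 and IL32 fell and IL22 was lower, by up to 15.04-fold for LTB, whereas a dim probe of IL10 was detected after CHOEP only, and a brighter one did not pass the threshold (0.31, adjusted p = 0.226). In HH 4 of 8 fell (against 9.64% of all genes), namely TNF, LTB, IL32 and IL26, the last detected in neither group, and IL22 was lower. In JURKAT none of the 8 genes tested passed the threshold, where 0.12% of all genes rose and 0.024% fell. The members were chosen on this contrast, so that nothing is read from these counts. A gene is said to rise or fall where the Benjamini-Hochberg adjusted p of the limma fit over all kept probes was under 0.05, and to be called where the fold change was also at least 2. Levels are log2 signals, and each difference is the CHOEP-treated minus the untreated mean on the log2 scale.

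**Figure D1:**
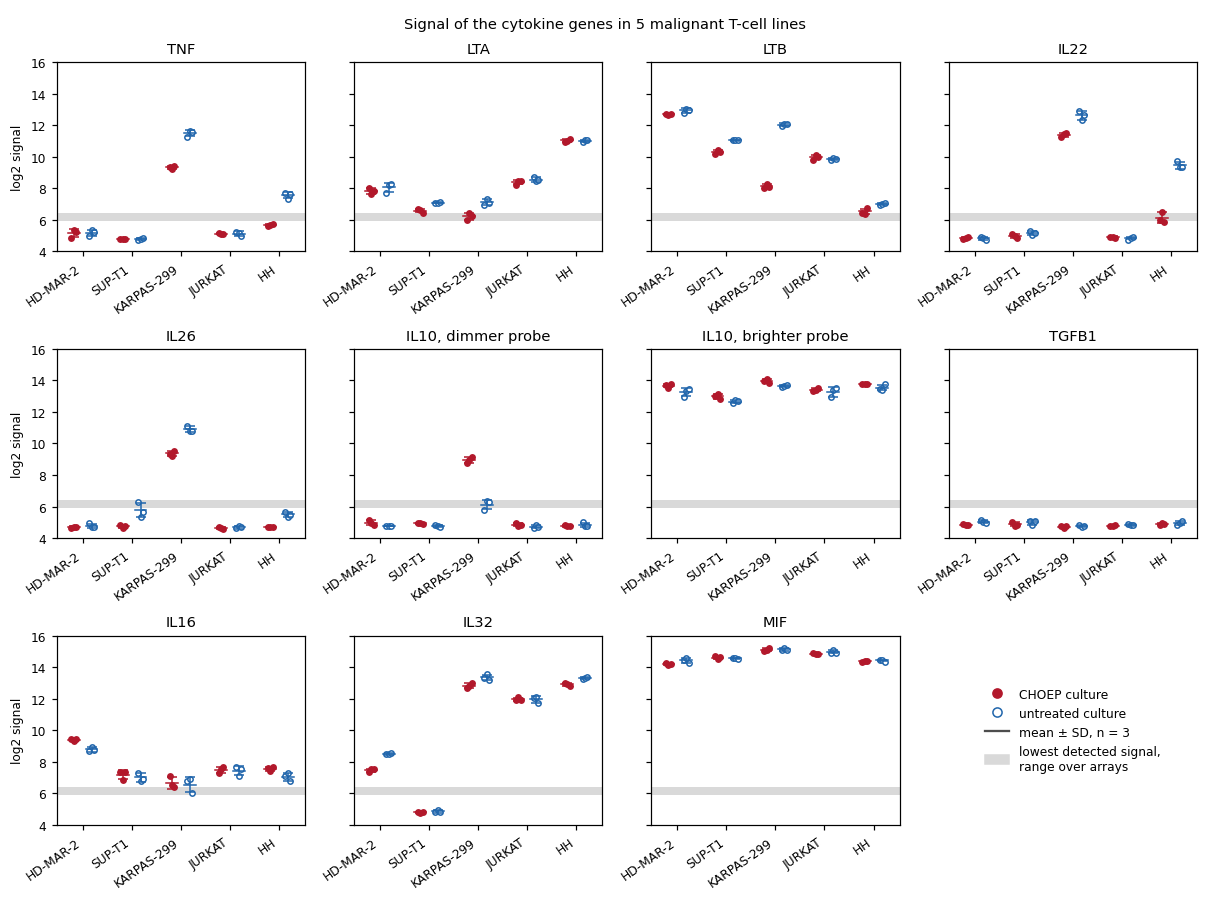
Log2 signal (y axis) of each cytokine gene in the CHOEP-treated (filled red) and untreated (open blue) cultures of the 5 lines (x axis), with the mean ± SD of 3 cultures. The grey band runs from 5.92 to 6.43, the range over arrays of the lowest signal that was detected. TNF, IL22 and IL26 stood far above the band in KARPAS-299, MIF and the brighter IL10 probe were high in every line, and TGFB1 lay under the band throughout.

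The reference promoters of 4 genes are shown, as 250 bases before the transcript start that lies farthest upstream (RefSeq, GRCh38.p14). TNF, LTB and IL26 fell in KARPAS-299, while IL10 was detected there after CHOEP by its dimmer probe and did not pass the threshold by its brighter one. NFAT and NF-κB drive many cytokine genes of activated T cells, and prednisone acts through the glucocorticoid receptor. The letters come from the reference and not from these lines. Capitals mark matches, on either strand, to the NFAT core GGAAA, the AP-1 site TGANTCA, an NF-κB site (GGG, any 2 bases, then TTTCC or TTCCC), the STAT site (TTC and GAA with any 3 bases between) and the glucocorticoid receptor site (GNACA and TGTNC with any 3 bases between).
TNF (chr6:31575315-31575564, plus strand): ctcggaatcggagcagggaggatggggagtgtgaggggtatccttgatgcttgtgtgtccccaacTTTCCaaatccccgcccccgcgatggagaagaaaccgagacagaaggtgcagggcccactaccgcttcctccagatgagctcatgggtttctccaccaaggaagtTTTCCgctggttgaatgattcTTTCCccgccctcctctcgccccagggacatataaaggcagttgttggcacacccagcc
LTB (chr6:31582426-31582675, minus strand): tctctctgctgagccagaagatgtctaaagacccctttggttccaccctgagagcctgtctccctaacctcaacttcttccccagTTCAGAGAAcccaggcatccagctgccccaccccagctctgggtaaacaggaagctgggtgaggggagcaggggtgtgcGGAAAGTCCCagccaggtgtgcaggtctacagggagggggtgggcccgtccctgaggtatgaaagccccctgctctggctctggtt
IL26 (chr12:68225811-68226060, minus strand): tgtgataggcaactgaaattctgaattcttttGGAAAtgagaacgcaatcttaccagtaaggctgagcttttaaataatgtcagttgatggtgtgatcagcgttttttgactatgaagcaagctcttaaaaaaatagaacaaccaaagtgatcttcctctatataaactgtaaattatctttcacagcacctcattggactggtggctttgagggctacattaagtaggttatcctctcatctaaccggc
IL10 (chr1:206772495-206772744, minus strand): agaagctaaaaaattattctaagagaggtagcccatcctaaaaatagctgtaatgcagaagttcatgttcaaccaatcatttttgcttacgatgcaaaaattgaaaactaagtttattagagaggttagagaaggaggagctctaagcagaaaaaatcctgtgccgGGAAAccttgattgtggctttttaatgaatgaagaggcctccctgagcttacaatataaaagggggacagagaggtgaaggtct
TNF held 3 matches to the NFAT core, IL26 and IL10 held 1 each, and LTB held 1 that lies inside its NF-κB match, beside 1 STAT match. Neither the AP-1 nor the glucocorticoid receptor letters were found in these windows. Over the 27305 promoters of the table the NFAT core was present in 56.0%, the AP-1 site in 6.57%, an NF-κB site in 3.53%, the STAT site in 6.76% and the glucocorticoid receptor site in 0.326%. Of the other members, the window of IL32 held 1 NF-κB and 3 NFAT core matches, and that of LTA 2 STAT and 2 NFAT core matches. The window of TGFB1 held 1 NFAT core match, and those of IL16 and MIF held no match.

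TNF, the ligand that gives the family its name, was measured in KARPAS-299 and HH and was not detected in the other lines. In KARPAS-299 its signal was 9.36, 9.21 and 9.4 in CHOEP-treated cultures, against 11.26, 11.61 and 11.59 in untreated ones. The groups did not overlap, and TNF fell by 2.17 ± 0.12 (SE; 4.49-fold; adjusted p = 7.74e-13, limma). In HH it was 5.63, 5.68 and 5.76 in CHOEP-treated cultures, under detection on all 3 arrays, against 7.7, 7.33 and 7.65 in untreated cultures, where it was detected on all 3. This is at least 2.56-fold lower, a bound that takes the lowest detected signal of each array, or the probe's own where higher, as the CHOEP level. Like the other bounds given here it holds for background-corrected signals. The fitted difference of -1.87 (adjusted p = 6.7e-12, limma) uses the undetected signals as they stand and does not test the bound. That difference was -1.04 with the authors' values and -1.10 without background correction. Among untreated lines KARPAS-299 (11.49 ± 0.2, SD, n = 3) was followed by HH (7.56 ± 0.2), and the values of these lines did not overlap.

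LTB anchors lymphotoxin at the cell surface by joining LTA in a membrane complex. Its brighter probe (ILMN_2376205) gave 8.02, 8.27 and 8.07 in CHOEP-treated KARPAS-299 cultures, against 11.93, 12.1 and 12.06 in untreated ones. Every treated culture was lower than every untreated culture by far more than the spread, and LTB fell by 3.91 ± 0.10 (15.04-fold; adjusted p = 2.48e-20). The other probe was not detected after CHOEP in KARPAS-299 (5.61, 5.39 and 5.25, against 9.38, 9.64 and 9.46 in untreated cultures), at least 9.19-fold lower. In SUP-T1 the brighter probe was 10.19, 10.42 and 10.33 in CHOEP-treated cultures, against 11.03, 11.06 and 11.03 in untreated ones, and LTB fell by 0.73 ± 0.10 (adjusted p = 8.89e-06). In HH it fell by 0.46 ± 0.10 (adjusted p = 0.00226), but only the brighter probe was detected there, and with median scaling the adjusted p was 0.148. The difference was -0.24 in HD-MAR-2 (adjusted p = 0.0925) and 0.10 in JURKAT (adjusted p = 0.972).

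Untreated HD-MAR-2 had the highest LTB level (12.94 ± 0.14), followed by KARPAS-299 (12.03 ± 0.09), SUP-T1 (11.04 ± 0.02), JURKAT (9.86 ± 0.05) and HH (6.99 ± 0.07). No neighbours in this order overlapped, and the other probe gave the same order. After CHOEP, KARPAS-299 (8.12) lay below JURKAT (9.97).

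LTA, the soluble lymphotoxin, was highest in HH, the line in which LTB was lowest. It was 10.92, 11.02 and 11.15 in CHOEP-treated HH cultures and 10.93, 11.07 and 11.04 in untreated ones, groups that overlapped. In KARPAS-299 LTA was 6.01, 6.41 and 6.24 in CHOEP-treated cultures, detected on 1 array, against 6.92, 7.32 and 7.08 in untreated ones, and fell by 0.89 ± 0.14 (adjusted p = 5.39e-05). In SUP-T1 it was 6.68, 6.63 and 6.45 in CHOEP-treated cultures, against 7.07, 7.06 and 7.1 in untreated ones, and fell by 0.49 ± 0.14 (adjusted p = 0.00931). Without CHOEP-treated SUP-T1 replicate 3 the adjusted p there was 0.0538. HD-MAR-2 (-0.22, adjusted p = 0.239) and JURKAT (-0.18, adjusted p = 0.929) did not pass. The untreated order was HH (11.02), JURKAT (8.55), HD-MAR-2 (8.06), KARPAS-299 (7.11) and SUP-T1 (7.08), and only the last pair overlapped.

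IL22, which acts through a receptor on epithelial cells, was among the genes the study itself picked from this contrast, so that its values are given with no test. Its brighter probe (ILMN_1735208) was 11.25, 11.42 and 11.48 in CHOEP-treated KARPAS-299 cultures, against 12.87, 12.33 and 12.67 in untreated ones, a difference of -1.24 (2.36-fold). In HH it was 6.01, 6.52 and 5.87 in CHOEP-treated cultures, detected on 1 array, against 9.73, 9.32 and 9.36 in untreated ones, a difference of -3.34 (10.1-fold) that was -2.41 with the authors' values. The treated and untreated cultures did not overlap in either line. The second probe gave a difference of -1.43 in KARPAS-299 and, being undetected in CHOEP-treated HH, was at least 6.01-fold lower there. Neither probe was detected in HD-MAR-2, SUP-T1 or JURKAT. Among untreated lines KARPAS-299 (12.62 ± 0.27) stood above HH (9.47 ± 0.22) with no overlap.

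IL26, the neighbour of IL22, was clearly measured in KARPAS-299 only. It was 9.36, 9.23 and 9.55 in CHOEP-treated cultures, against 11.11, 10.77 and 10.8 in untreated ones. It fell by 1.51 ± 0.15 (2.84-fold; adjusted p = 2.59e-08), and the groups did not overlap. In SUP-T1 the probe was not detected in CHOEP-treated cultures (4.81, 4.65 and 4.76) and was detected in 1 of 3 untreated cultures (6.26, 5.37 and 5.68). The fitted difference of -1.02 passed both thresholds (adjusted p = 8.75e-06), but the detection limit allows no fold to be given. It was -0.98 without CHOEP-treated SUP-T1 replicate 2 and -0.78 without untreated SUP-T1 replicate 1, which ended the call. In HH it was detected in neither group (4.68, 4.7 and 4.71 in CHOEP-treated cultures, against 5.64, 5.36 and 5.48 in untreated ones; adjusted p = 0.000236), so that only the order of these dim signals is known. In HD-MAR-2 and JURKAT all IL26 signals lay between 4.58 and 4.93 and were not detected.

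The 2 probes of IL10 disagreed. ILMN_1674167, the dimmer, was detected on 3 of 30 arrays, those of CHOEP-treated KARPAS-299, with 8.79, 8.98 and 9.17 there, against 5.77, 6.33 and 6.28 in untreated KARPAS-299. The CHOEP-treated cultures were at least 6.22-fold higher, but this probe passed the filter only through that group. It had to differ there, so that no test is given. The difference of 2.85 was 1.96 with the authors' values and 2.03 without background correction. ILMN_2073307, the brighter, was detected on all 30 arrays in all lines, and in KARPAS-299 it was 13.95, 14.08 and 13.84 after CHOEP, against 13.61, 13.62 and 13.71 in untreated cultures (difference 0.31, adjusted p = 0.226). Over the 30 arrays the log2 signals of both probes had a Pearson r of 0.525, against 0.863 to 0.995 for the pairs of LTB, IL22, IL16 and IL32, where the arrays share their lines. Which probe follows IL10 mRNA was not tested. In HD-MAR-2 the brighter probe rose by 0.41 ± 0.14 (13.7, 13.54 and 13.75 in CHOEP-treated cultures, against 12.96, 13.34 and 13.46 in untreated ones; adjusted p = 0.0271), while the dimmer was not detected. The difference was under 2-fold and was not called. It did not pass without CHOEP-treated HD-MAR-2 replicate 1 (0.39, adjusted p = 0.0744) or 3 (0.37, 0.0964), without untreated replicate 1 (0.26, 0.207), with the line fitted alone (0.41, 0.079) or with median scaling (0.19, 0.449).

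TGFB1, the ligand that acts through SMAD proteins, had a single probe, with log2 means between 4.73 and 5.05 over the groups and raw signals of 61.9 to 95.2. It was not tested, and a level under detection by this probe does not show that the mRNA was absent.

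IL16 was highest in HD-MAR-2, with 9.46, 9.32 and 9.45 in CHOEP-treated cultures, against 8.66, 8.91 and 8.76 in untreated ones. It rose by 0.63 ± 0.21 (adjusted p = 0.0246), and the groups did not overlap. The difference was under 2-fold and was not called. With median scaling it was 0.33 (adjusted p = 0.346), and with no detection filter the adjusted p was 0.05. Leaving out CHOEP-treated HD-MAR-2 replicate 1 (0.61, adjusted p = 0.0677) or 3 (0.61, 0.0692) or untreated replicate 1 (0.57, 0.0856) or 3 (0.62, 0.0597) left the size about the same but not past the threshold. Other lines had differences between 0.03 and 0.49, none past the threshold, and untreated levels from 6.55 to 7.44 that overlapped from each line to the next. A second probe was detected in HD-MAR-2 only, on 2 arrays of CHOEP-treated and 1 of untreated cultures.

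IL32, made by T and NK cells, was high in KARPAS-299, HH and JURKAT, lower in HD-MAR-2 and not detected in SUP-T1. In HD-MAR-2 its brighter probe (ILMN_2368530) was 7.36, 7.54 and 7.51 in CHOEP-treated cultures, against 8.49, 8.47 and 8.57 in untreated ones. It fell by 1.03 ± 0.11 (2.05-fold; adjusted p = 6.84e-08), with no overlap. The fold lay close to the threshold of 2, and the difference was -0.98 without CHOEP-treated HD-MAR-2 replicate 1. IL32 fell by 0.53 ± 0.11 in KARPAS-299 (12.7, 12.78 and 13 in CHOEP-treated cultures, against 13.32, 13.54 and 13.2 in untreated ones; adjusted p = 0.00244) and by 0.42 ± 0.11 in HH (12.98, 12.91 and 12.82 in CHOEP-treated cultures, against 13.26, 13.31 and 13.38 in untreated ones; adjusted p = 0.00885). With KARPAS-299 fitted alone the adjusted p there was 0.0929, and the second probe gave 0.126 in HH. In JURKAT the difference was 0.01. Untreated KARPAS-299 (13.35 ± 0.17) and HH (13.32 ± 0.06) overlapped, and JURKAT (11.96 ± 0.23), HD-MAR-2 (8.51 ± 0.05) and SUP-T1 (4.86 ± 0.09) followed without overlap.

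MIF, which signals through CD74, lay between 14.12 and 15.22 on all arrays, with raw signals of 14069.2 to 39280.1, where the highest signal of any probe was 63866.5. In HD-MAR-2 it was 14.24, 14.12 and 14.21 in CHOEP-treated cultures, against 14.43, 14.55 and 14.27 in untreated ones (difference -0.22, adjusted p = 0.0612). The differences in the other lines were -0.12 in JURKAT, -0.05 in HH, -0.04 in KARPAS-299 and 0.04 in SUP-T1, none past the threshold. Untreated KARPAS-299 (15.13) and JURKAT (14.97) overlapped, as did HH and HD-MAR-2 (14.42 each).

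**Figure D2:**
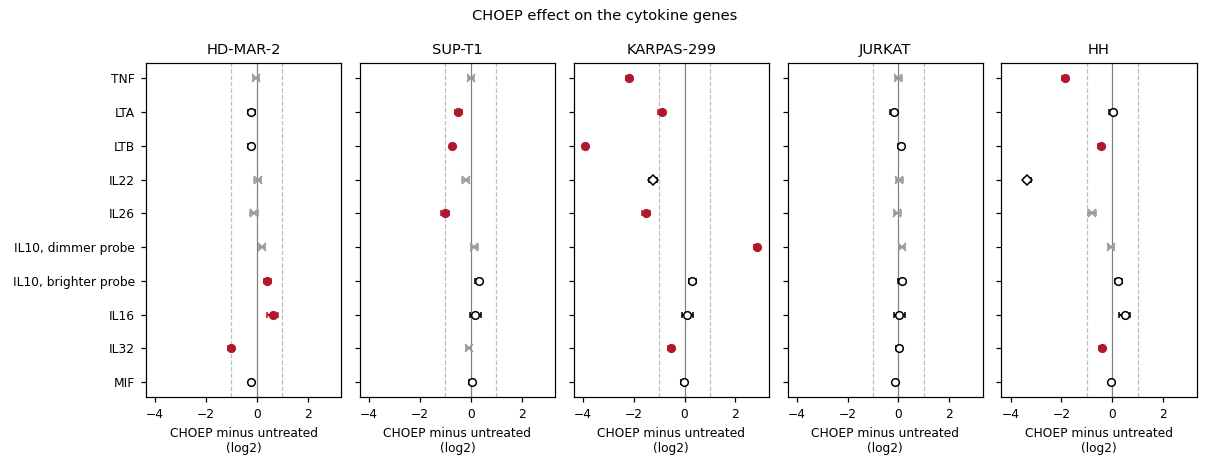
CHOEP-treated minus untreated log2 signal (x axis) with its standard error for each cytokine gene (y axis) in the 5 lines (panels). Filled red points passed an adjusted p of 0.05, open points did not, grey crosses were detected in neither group, open diamonds are IL22 (no test), and dashed lines mark 2-fold. LTB in KARPAS-299 lies farthest to the left at -3.91 and the dimmer IL10 probe in KARPAS-299 farthest to the right at 2.85. That probe was kept only through its CHOEP-treated group there, so that its colour is not read as a test.

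With each gene at its brightest probe, the counts by line were as follows, beside the share of all 12482 genes that passed the same threshold, with IL22 left out. Because results of this contrast chose the members, nothing is read from these shares. IL10 enters by its brighter probe, and which of its probes follows IL10 mRNA was not tested. Its dimmer probe, detected in KARPAS-299 after CHOEP only, is not in the counts. In HD-MAR-2, 2 of 8 genes rose (IL10 and IL16, against 14.9% of all genes) and 1 fell (IL32, against 15.8%), while none was called up (1.86%) and IL32 was called down (1.8%). With median scaling, or without untreated replicate 1, none rose there and IL32, LTA and LTB fell. In SUP-T1 none rose (12.3%) and 3 fell (LTA, LTB and IL26, against 13.9%), none was called up (1.59%) and IL26 was called down (0.817%). IL26 was detected there in 1 of 3 untreated cultures and in no CHOEP-treated one, so that no fold can be given. In KARPAS-299 none rose (2.8%) and 5 fell (TNF, LTA, LTB, IL26 and IL32, against 4.02%), none was called up (0.569%) and TNF, LTB and IL26 were called down (0.729%). In JURKAT none rose (0.12%) or fell (0.024%), none was called up (0.0481%) or down (0%), and at an unadjusted p under 0.05 in the limma fit the count was also 0 of 8. In HH none rose (9.89%) and 4 fell (TNF, LTB, IL32 and IL26, the last detected in neither group, against 9.64%), while none was called up (1.92%) and TNF was called down (0.857%). With IL22 among them, the median difference over 9 genes was -0.89 in KARPAS-299, -0.42 in HH, -0.08 in SUP-T1, -0.10 in HD-MAR-2 and 0.01 in JURKAT, and over all genes it was between -0.01 and 0.01.

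The CHOEP effect differed between the 5 lines by the limma F test for 5 of the 8 genes, against 35.1% of all genes. Because the members were selected on these differences, nothing is read from this count or from the p-values. The adjusted p was 1.28e-11 for TNF, 0.00553 for LTA, 1.19e-16 for LTB, 7.96e-06 for IL26 and 5.62e-05 for IL32. The brighter IL10 probe (0.749), IL16 (0.343) and MIF (0.441) did not pass, and the dimmer IL10 probe, kept through 1 group only, is given no such test. TNF was undetected in 3 lines (JURKAT, HD-MAR-2 and SUP-T1), as was IL26 (JURKAT, HD-MAR-2 and HH), so that their tests set signals against the background level. The dose was set to each line, so that dose and line cannot be told apart in this test.

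Markers of other cells, 17 of them with a probe, were checked in every line. JURKAT had 5 that were detected on every array of each group, while SUP-T1 had 4. For HH the count was 5 with CHOEP and 4 untreated, against 4 and 2 for HD-MAR-2. In KARPAS-299, described further here, 6 were detected on every CHOEP-treated and 5 on every untreated array. LYZ, CSF1R, S100A8, S100A9 and CD79B were so in both groups, and FCGR3A in the CHOEP-treated group only. CD14, CD163 and MS4A1 were not among them. The summed linear signal of the 17 was 3198 to 3545 in CHOEP-treated cultures, against 4286 to 5257 in untreated ones. Of the 10 that were tested, S100A8 and S100A9, which neutrophils and monocytes express, fell by 1.28 and 1.59 and none rose (median -0.05). The summed signal of the 10 T-cell markers was 8011 to 8335 in CHOEP-treated KARPAS-299 cultures, against 9850 to 11494 in untreated ones. Their part in the cytokine results was not tested.

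Of 13 receptor genes of these cytokines tested, 3 rose and 3 fell in HD-MAR-2 (median 0.06), 4 rose in SUP-T1 (0.21), 1 rose in KARPAS-299 (-0.10), and 2 rose and 3 fell in HH (-0.06). The shares of all genes that rose and fell were 9.89% and 9.64% for HH, against 2.8% and 4.02% for KARPAS-299. They were 12.3% and 13.9% for SUP-T1, against 14.9% and 15.8% for HD-MAR-2. Whether the counts of this or the later lists differ from these shares was not tested. A gene past the adjusted p is counted also where neither group of the line detected it. In JURKAT no gene of this or the other lists passed the adjusted p of the limma fit, while an unadjusted p under 0.05 was found for 1 of 13 receptors, 6 of 25 other cytokines, 2 of 12 genes of release and decay, 1 of 11 SMAD factors and TGF-β targets, 1 of 10 NF-κB targets and 6 of 26 transcription factors. In HD-MAR-2, TNFRSF1B, the TNF receptor of lymphocytes, fell by 1.53 (6.5 in CHOEP-treated and 8.02 in untreated cultures, adjusted p = 3.03e-09), while TNFRSF14, which binds LTA and TNFSF14, rose by 1.17 (11.2 in CHOEP-treated and 10.03 in untreated cultures, adjusted p = 2.71e-07). CD74, the MIF receptor and MHC class II chaperone, fell by 1.66 in HD-MAR-2 (adjusted p = 1.16e-09) and by 0.54 in HH (adjusted p = 0.00705). CXCR4, a chemokine receptor that also binds MIF, rose by 1.10 in KARPAS-299 and by 1.67 in HH (adjusted p = 1.38e-05 and 4.57e-09). TGFBR3, a TGF-β co-receptor, fell by 1.13 in HD-MAR-2 (adjusted p = 9.77e-06). LTBR, the receptor of the LTA and LTB complex, was named after its values were seen: it was detected in KARPAS-299 only, at 9.04 in CHOEP-treated and 9.3 in untreated cultures (adjusted p = 0.218).

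TNF induces a set of NF-κB target genes, many of which limit the pathway again. The list drawn up for them held BIRC3, which the study had picked from these arrays, so that the counts are no independent evidence. Of 10 such genes tested, 7 fell and none rose in KARPAS-299 (median -0.72), and 8 fell and 1 rose in HH (median -0.86). TNF was detected in these lines, but a link between its level and these genes was not tested. In HD-MAR-2, 3 rose and 2 fell (median 0.06), and in SUP-T1 3 rose (median 0.25). TRAF1, an adaptor of TNF receptors, fell by 1.49 in HH (10.9 in CHOEP-treated and 12.38 in untreated cultures, adjusted p = 2.98e-07), by 0.76 in KARPAS-299 and by 1.5 in HD-MAR-2. NFKB2, a subunit of the non-canonical pathway that lymphotoxin starts, fell by 1.17 in KARPAS-299 (adjusted p = 1.09e-05) and by 1.36 in HH (adjusted p = 4.37e-07). IER3, an early response gene, fell by 1.35 in KARPAS-299 and by 1.07 in HH. NFKBIA, the inhibitor IκBα, rose by 1.30 in HD-MAR-2 (adjusted p = 4.1e-08) and by 0.98 in SUP-T1, while in KARPAS-299 (-0.18) and HH (-0.20) it did not pass. CFLAR, which blocks caspase-8, rose by 1.21 in HH (adjusted p = 1.45e-08). Leaving out untreated KARPAS-299 replicate 2 gave 5 genes that fell there.

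**Figure D3:**
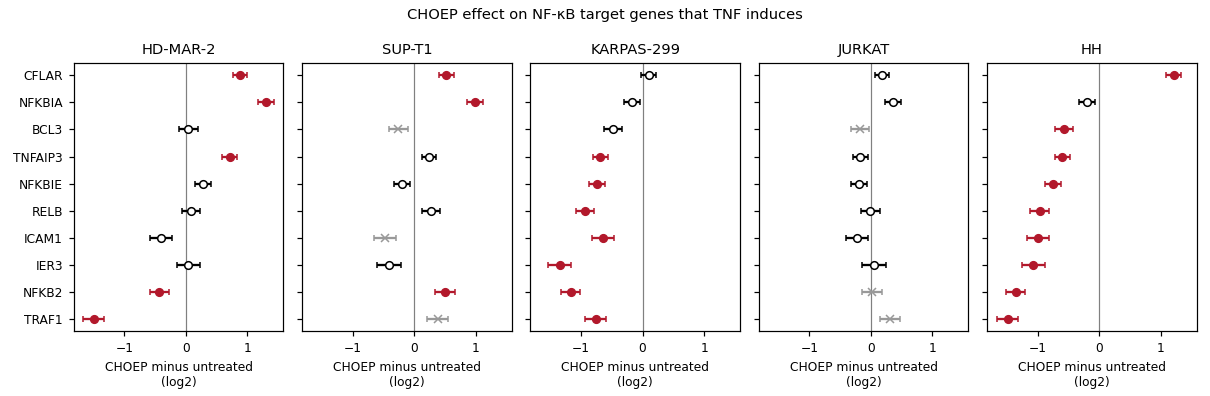
CHOEP-treated minus untreated log2 signal (x axis) with its standard error for 10 NF-κB target genes that TNF induces (y axis, ordered by their difference in HH) in the 5 lines (panels). Filled red points passed an adjusted p of 0.05, open points did not, and grey crosses were detected in neither group. In KARPAS-299 and HH most points lie left of 0 (7 and 8 fell), and in HD-MAR-2 and SUP-T1 NFKBIA and CFLAR lie to the right.

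Of 12 genes tested that release, activate or degrade these cytokines or their mRNAs, ZFP36L2 was called up in 4 lines and no other was called. Passing the adjusted p were 2 that rose and 3 that fell in HD-MAR-2 (median 0.05), 3 and 1 in SUP-T1 (0.05), and 1 that rose and 1 that fell in each of KARPAS-299 (-0.17) and HH (-0.02). ZFP36L2 belongs to the tristetraprolin family, which binds AU-rich elements of cytokine mRNAs and speeds their decay, and the study had picked it from these arrays, so that its change is no independent evidence. It rose by 2.49 in HD-MAR-2, 2.19 in HH, 1.89 in SUP-T1 and 1.5 in KARPAS-299 (adjusted p between 1.66e-12 and 4.86e-08), and the difference in JURKAT was 0.37 (adjusted p = 0.62). Of 11 SMAD factors and TGF-β targets none was called in any line. Over all genes no line had more than 1.92% called up or 1.8% called down. Passing the adjusted p were 1 that rose and 4 that fell in SUP-T1 (12.3% and 13.9% of all genes), and 1 and 2 in HD-MAR-2 (14.9% and 15.8%). In HH 2 rose (9.89%) and in KARPAS-299 1 rose (2.8%), and none fell in either (9.64% and 4.02%).

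Of 54 other cytokine and chemokine genes 25 were tested. In KARPAS-299 3 rose and 7 fell, in HH 4 rose and 6 fell, in HD-MAR-2 5 rose and 3 fell, in SUP-T1 2 rose, with medians between -0.09 and 0.06. These counts include genes detected in neither group of the line, among them IL12A (fell) and TNFSF8 (rose) in HD-MAR-2 and TNFSF12 (rose) in HH. TGFB3, a relative of TGFB1, rose by 3.14 in HH (9.66 in CHOEP-treated and 6.52 in untreated cultures, 8.79-fold, adjusted p = 1.61e-13) and by 1.06 in KARPAS-299 (7.31 with CHOEP and 6.25 untreated, adjusted p = 0.000115). CXCL10, a chemokine for activated T cells, fell by 1.90 in HH (6.44 with CHOEP and 8.35 untreated, adjusted p = 6.51e-07). EBI3, a subunit of interleukin-27, was at least 1.38-fold lower in KARPAS-299, where it was not detected after CHOEP. CD70, a TNF family ligand, fell by 1.18 in HD-MAR-2, 0.86 in KARPAS-299 and 0.54 in HH but rose by 0.94 in SUP-T1. CCL5, a chemokine of effector T cells, fell by 1.15 in HD-MAR-2, 0.77 in KARPAS-299 and 0.56 in HH. IL18, DDT (a homologue of MIF) and TNFSF14 were detected on all 30 arrays, and of these IL18 and TNFSF14 rose in HD-MAR-2, by 0.58 and 0.71, and DDT rose in SUP-T1 and HH, by 0.42 and 0.32 (adjusted p = 0.00273 and 0.0264).

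Of 26 transcription factors tested that are known to control cytokine genes, 8 rose and 4 fell in HD-MAR-2, 10 rose and 5 fell in SUP-T1, 1 rose and 5 fell in KARPAS-299, and 5 rose and 4 fell in HH, with medians of 0.13, 0.12, -0.20 and 0 in that order. The factors NFIL3, EOMES, EGR1 and BHLHE40 had been picked by the study from these arrays, so that their changes are no independent evidence. NFIL3, which represses or activates cytokine genes by context, rose by 2.75 in HD-MAR-2 and 3.90 in HH (adjusted p = 1.35e-12 and 6.42e-16), and BHLHE40, which represses IL10 in mouse T cells, fell by 1.25 in KARPAS-299, 1.11 in HH and 0.74 in HD-MAR-2. EOMES, a factor of effector T cells, rose by 2.52 in SUP-T1 and 1.37 in HD-MAR-2 and fell by 0.59 in KARPAS-299, and EGR1, an early gene of T-cell activation, fell by 1.75 in SUP-T1, 1.55 in HD-MAR-2 and 0.51 in KARPAS-299. PRDM1 (Blimp-1) rose by 1.91 in HH (11.73 in CHOEP-treated and 9.82 in untreated cultures, adjusted p = 5.97e-11) and was at least 1.58-fold higher in SUP-T1. STAT5A rose by 1.19 in SUP-T1 (adjusted p = 1.21e-06).

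Over the 30 arrays, which share 5 lines and 2 treatments, the genes most like each member by Pearson r of the log2 signal were listed as a description. TNF was most like IL22 (0.977), JUNB (0.976) and TENM4 (0.972), and IL22 most like JUNB (0.98), TNF and KSR1 (both 0.977). IL26 was most like DUSP9 (0.986), LTA most like KIF3B (0.971) and IL32 most like RAB33A (0.994). For LTB no gene exceeded 0.889 (U2AF1, UHRF1 and GNA15). The dimmer IL10 probe was most like GNLY (0.988), the cytotoxic granule protein, and the brighter like ZNF486 (0.959). IL16 was most like WAKMAR2 (0.941) and MIF most like UPP1 (0.958).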

How the data were processed

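Arrays were assigned to lines, treatments and replicates by the sample labels, and the cultures of a group are biological replicates of 1 line. The authors deposited the signal intensity of every probe as read by BeadStudio, without normalisation, with detection p-values against negative control beads, and normalised log2 values made with lumi (robust spline). Of 48107 probes 47323 have values. Gene symbols came from GEO's platform table, updated by Entrez number, and genes only from the 30113 probes with 1 symbol. The neqc step of limma (3.58.1, with R 4.3.3; offset 16, background estimated from the detection p-values) corrected, quantile normalised and log2 transformed them. The 22652 kept probes were fitted with 1 mean for each of 10 groups (20 residual degrees of freedom), moderated by empirical Bayes, and p was adjusted by Benjamini-Hochberg over them. A gene was represented by its brightest probe, and where a group had it on no array the fold is a bound. The number of arrays limits the precision. The members, gene lists, motifs and tests were chosen with earlier results of these data known. Genes named are the members, up to 6 called genes of each list by size of change, the most abundant other cytokines, and the genes most like each member. Motifs were searched in RefSeq promoters (GRCh38.p14) for the 9 members listed there, and IL22 was not analysed in this way. Array correlations reached 0.9958, and none were identical. Alternatives were the authors' values, other normalisations and filters, a replicate block, a variance trend, each line alone, the other probe and each array left out.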

Additional observations from a re-analysis of the deposited data

Results flagged for a closer look

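The CHOEP effect differed between the 5 lines by a limma F test on the difference itself for 5 of 8 genes, against 35.1% of all genes. IL22 was left out because the study picked it from this contrast. The other members were also selected on these differences, so that the p-values are no independent evidence and nothing is read from them. IL26 passed the detection filter only through KARPAS-299, and TNF only through KARPAS-299 and untreated HH. The adjusted p was 1.28e-11 for TNF (-2.17 in KARPAS-299 and at least 2.56-fold lower in HH, undetected in both groups of the other lines, so that the test sets signals against the background level) and 1.19e-16 for LTB (-3.91 in KARPAS-299, 0.10 in JURKAT). It was 0.00553 for LTA (-0.89 in KARPAS-299, 0.01 in HH), 7.96e-06 for IL26 (-1.51 in KARPAS-299, undetected in HD-MAR-2, JURKAT and HH) and 5.62e-05 for IL32 (-1.03 in HD-MAR-2, 0.01 in JURKAT). Groups of 3 are too small for a test of single outlying cultures.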

How the results depend on the processing

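Of 561 comparisons of a member's difference in a line with an alternative, 508 kept their direction and their side of the threshold, 16 lost significance, 10 gained it, 3 (IL22, no test) moved by more than the spread and 24 changed sign. The 5 genes that fell and the 3 called in KARPAS-299 remained under the replicate block (5 and 3), and the block changed no other count of members. The replicate numbers were not read as pairs, because only 3 of 15 same-numbered pairs correlated above 0.1. In HD-MAR-2 the 3 genes that rose or fell became 5 with the authors' values and 1 to 3 with a culture left out (1 without CHOEP-treated replicate 1 or 3), and the call of IL32 gave a count of 0 with the authors' values (-0.80) and when quantile normalisation was used without background correction (-0.81), and 0 to 1 with a culture left out. In SUP-T1 the count of called genes was 0 with both of these settings, 2 with median scaling and 0 to 1 with a culture left out. Of the 24 sign changes, LTB in HH alone started from a value past the threshold (-0.46, against 0.08 by the other probe). The other probe also turned IL10 (-0.05) and IL16 (-0.03) in HH, IL16 in SUP-T1 (-0.02) and IL16 (-0.11) and IL32 (-0.17) in JURKAT. Median scaling turned LTB in JURKAT and IL10 in SUP-T1 (each 0.00 after rounding), IL16 (-0.01) and IL32 (-0.11) in JURKAT, and MIF in SUP-T1 (-0.05) and HH (0.06). Leaving out a culture turned the rest, with ranges of -0.05 to 0.07 for LTA in HH, -0.05 to 0.25 for IL10 in JURKAT, -0.17 to 0.28 for IL16 in KARPAS-299, -0.14 to 0.13 for IL16 and -0.12 to 0.09 for IL32 in JURKAT, and 0.00 to 0.09 for MIF in SUP-T1 and -0.09 to 0.01 in KARPAS-299. The cause was not tested. Median scaling moved the median of all genes to -0.18 in SUP-T1 and -0.20 in HD-MAR-2. IL22 in HH was -2.41 with the authors' values, -2.47 without background correction and -3.73 by the other probe. TNF in HH ranged from -1.98 to -1.04 and the dimmer IL10 probe in KARPAS-299 from 1.96 to 2.95. LTA, LTB and MIF in HD-MAR-2 passed without untreated replicate 1 (0.0318 and 0.0448) or 3 (MIF, 0.0238). The NF-κB targets that fell, tried after the data had been seen, numbered 5 to 8 in KARPAS-299 and 8 in HH. A probe detected on no array of a group gave a bound only, and one detected on 1 of 3 arrays was measured close to the detection limit of 5.92 to 6.43.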
